A study of Mus musculus with 5 samples.

Results

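CD45+ cells of Ptgs-/- 5555 melanomas grown in mice depleted of NK cells were compared with CD45+ cells of Ptgs+/+ 5555 melanomas, class by class of the authors' deposited annotation. A class was compared where both libraries held at least 30 of its cells, and cells annotated as NK were left out. This kept 12 of 14 classes and 6900 cells, 3798 from the NK-depleted Ptgs-/- library and 3102 from the Ptgs+/+ library, of 11818 annotated cells in the 3 libraries of 5555 tumours. The classes were 2 of monocytes, 1 called Mono Mac, 4 of tumour-associated macrophages (TAM 1 to 4), 3 of conventional dendritic cells (cDC1, cDC2 and cDC3), neutrophils and T cells. B cells were not compared, at 36 cells in the NK-depleted Ptgs-/- library and 23 in the Ptgs+/+ library.

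All tumours grew under the skin of C57BL/6 mice and were taken on day 4 after injection of 5555 cells, a melanoma line. The NK-depleted group carried the Ptgs-/- line, which lacks prostaglandin production, in mice given anti-NK1.1 (clone PK136) and anti-Asialo GM-1 antibodies. The undepleted Ptgs-/- group carried the same line with no NK depletion, and the Ptgs+/+ group carried the Ptgs+/+ line with no NK depletion. Live CD45+ cells were sorted, and 16000 to 18000 of them were loaded per library with about 3.5% of spiked-in cells, whose identity is not given in the sources used here. It is the injected line that carries the deletion. The host is of wild type in every group as far as the labels say, and the sort leaves tumour cells out, so no level of Ptgs1 or Ptgs2 in these libraries checks the genotype. A mouse with Ptgs+/+ tumours and NK depletion is not among the groups, so the Ptgs genotype and the depletion cannot be told apart from this contrast alone, and values of the undepleted Ptgs-/- library are given beside it for that reason. That library is set against the same Ptgs+/+ library, so the 2 contrasts share their lower term. Each group is 1 library, and the number of mice in it is not given in the sources used here. No test between groups is possible. Values describe these libraries, and the intervals given hold for counting error alone.

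Cyclooxygenases, encoded by Ptgs1 and Ptgs2, make the precursor of prostaglandin E2, which acts on myeloid cells through receptors that raise cyclic AMP. In tumours prostaglandin E2 is known to favour inflammatory and neutrophil-attracting genes in myeloid cells and to restrain NK cells and dendritic cells. NK cells are a main early source of interferon-gamma in tumours and of chemokines that attract cDC1s, the subset that cross-presents antigen to CD8 T cells.

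Interferon-stimulated genes are one group these contrasts bear on, and the Ifitm genes, which encode interferon-induced transmembrane proteins, include the lowest-ranked gene of 7 of 12 classes, Ifitm1. The 250 bases before the transcription start are printed for 3 Ifitm genes and, for comparison, for Rsad2 and Isg15, which encode antiviral proteins of the type I interferon response. The sequences are from RefSeq on GRCm38.p6, on the strand of each gene: chr7:140967826-140968075 for Ifitm1 (plus strand), chr7:140955962-140956211 for Ifitm2 (minus strand), chr7:141010745-141010994 for Ifitm3 (minus strand), chr12:26456453-26456702 for Rsad2 (minus strand) and chr4:156200819-156201068 for Isg15 (minus strand). Capitals mark matches, on either strand, to GAAA, any 2 bases and GAAA again, a short form of the interferon-stimulated response element. The Ifitm windows were added after their values had been seen.

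Ifitm1: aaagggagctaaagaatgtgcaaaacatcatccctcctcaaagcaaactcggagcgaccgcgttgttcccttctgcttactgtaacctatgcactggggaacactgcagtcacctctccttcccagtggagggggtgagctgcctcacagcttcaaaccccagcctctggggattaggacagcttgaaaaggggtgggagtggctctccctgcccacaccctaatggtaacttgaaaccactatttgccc
Ifitm2: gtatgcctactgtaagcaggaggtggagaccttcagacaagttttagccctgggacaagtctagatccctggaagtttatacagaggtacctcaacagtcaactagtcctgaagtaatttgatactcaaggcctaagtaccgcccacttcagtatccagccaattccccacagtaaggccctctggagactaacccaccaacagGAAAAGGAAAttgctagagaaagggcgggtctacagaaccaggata
Ifitm3: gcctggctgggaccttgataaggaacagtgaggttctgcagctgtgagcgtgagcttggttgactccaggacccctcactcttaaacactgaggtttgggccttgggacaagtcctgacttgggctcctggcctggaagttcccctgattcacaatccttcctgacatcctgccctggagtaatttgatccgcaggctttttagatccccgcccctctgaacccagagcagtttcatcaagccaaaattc
Rsad2: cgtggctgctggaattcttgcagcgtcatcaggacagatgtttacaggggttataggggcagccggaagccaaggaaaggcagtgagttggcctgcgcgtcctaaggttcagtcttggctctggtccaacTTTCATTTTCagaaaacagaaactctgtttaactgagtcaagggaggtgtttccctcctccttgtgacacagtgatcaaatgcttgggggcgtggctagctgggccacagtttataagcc
Isg15: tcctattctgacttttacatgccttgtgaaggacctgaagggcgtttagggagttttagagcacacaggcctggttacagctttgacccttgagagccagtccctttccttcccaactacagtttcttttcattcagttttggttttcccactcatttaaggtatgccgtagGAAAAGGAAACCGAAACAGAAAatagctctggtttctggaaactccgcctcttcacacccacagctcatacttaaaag

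This motif was found in 2.98% of all 32851 promoter windows in the table, which is 3.46% of genes, in 11 of 24 type I interferon-stimulated genes with a window (45.8%) and in 1 of 7 Ifitm genes, which was Ifitm2. The 3 matches in Isg15 overlap and read as a single run of capitals. TTCNNNGAA, a short form of the interferon-gamma activated site, was found in 7.02% of all windows (8.13% of genes) and in 4 of 24 type I genes. The cyclic AMP response element TGACGTCA was found in 1.55% of all windows (1.77% of genes) and, of 13 cyclic AMP-responsive genes with a window, in Areg and Dusp1. All 3 motifs were searched on both strands. A match is a description of letters and does not show a used site.

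The NK-depleted Ptgs-/- library was deeper, with a median of 5462 UMIs per cell, against 4563 in the undepleted Ptgs-/- library and 3634 in the Ptgs+/+ library. The median was higher in the NK-depleted Ptgs-/- library than in the Ptgs+/+ library in all 12 classes, and levels are therefore given as CPM, the UMIs of a gene after each cell was scaled to the same total, averaged over the cells of a class. The depletion was visible in the RNA. Ncr1, which encodes the NK cell receptor NKp46, had 0 UMIs in 3879 cells of the NK-depleted Ptgs-/- library, against 446 UMIs in the undepleted Ptgs-/- and 127 in the Ptgs+/+ library. Ifng, the interferon-gamma gene, had 16 UMIs after depletion, 383 in the undepleted Ptgs-/- and 80 in the Ptgs+/+ library. The libraries shared 9 cell barcodes, carried by 18 cells, and these were removed before counting.

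The makeup of the myeloid compartment differed most in 4 classes. Monocytes 1 made up 28.6% of all cells in NK-depleted Ptgs-/- tumours, 14.9% in undepleted Ptgs-/- tumours and 6.93% in Ptgs+/+ tumours. This is 4.12 times the Ptgs+/+ share (interval 3.60-4.72, 1108 against 226 cells). Mono Mac cells were 6.96%, 5.20% and 1.75% in the same order, 3.98 times the Ptgs+/+ share (3.00-5.28, 270 against 57 cells). TAM 2 and neutrophils lay in the opposite direction. TAM 2 made up 5.18% of cells in NK-depleted Ptgs-/-, 5.13% in undepleted Ptgs-/- and 20.8% in Ptgs+/+ tumours, a ratio of 0.249 (0.215-0.290). Neutrophils made up 1.96%, 2.37% and 6.28%, a ratio of 0.312 (0.241-0.404). Among cells with at least 500 genes, a limit that removes many neutrophils because they hold little RNA, the neutrophil ratio was 0.503.

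The other classes had ratios nearer to 1. TAM 1 was 12.5% in NK-depleted Ptgs-/-, 19.9% in undepleted Ptgs-/- and 18.7% in Ptgs+/+ tumours (0.667, 0.598-0.744). Monocytes 2 (1.09, 0.951-1.24), TAM 3 (1.10, 0.933-1.30), TAM 4 (1.17, 0.991-1.39), cDC1 (1.20, 0.791-1.81), cDC2 (0.901, 0.789-1.03) and cDC3 (0.701, 0.473-1.04) had intervals that include 1. Monocytes and macrophages together made up 80.1% of the NK-depleted Ptgs-/- and 72.4% of the Ptgs+/+ library, and conventional DCs stood at 0.902 times their Ptgs+/+ share (0.802-1.01). Shares are parts of 1 total, and a class that takes more of it leaves less for the rest.

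**Figure D1:**
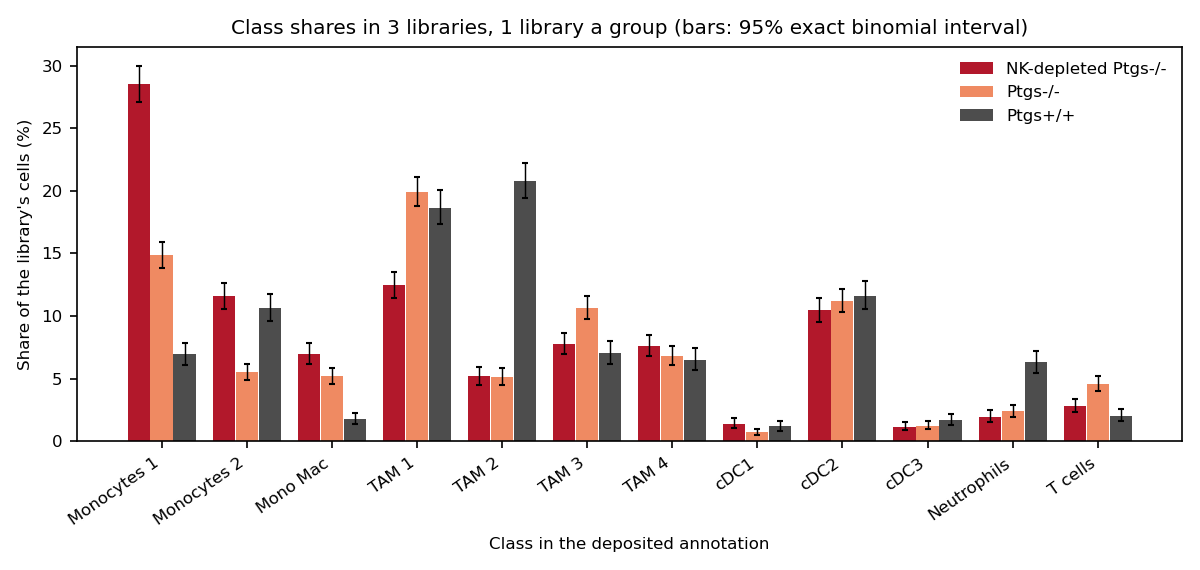
Share of each library's cells (y axis, percent) in the 12 classes compared (x axis), with bars for NK-depleted Ptgs-/-, Ptgs-/- and Ptgs+/+ and exact binomial 95% intervals. Monocytes 1 stands at 28.6% after NK depletion against 6.93% in Ptgs+/+, and TAM 2 at 5.18% against 20.8%.

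The class names were checked against marker genes. Among the 10 genes that set Monocytes 1 apart from the other classes were Cbr2, Gas6, Folr2, Selenop and Siglec1, which are known from macrophages, and none of the 10 was on the list of monocyte markers. The summed level of macrophage markers in Monocytes 1 was 10180 CPM in NK-depleted Ptgs-/- and 12910 CPM in Ptgs+/+ tumours, against 12480 and 11650 CPM in TAM 1. Monocyte markers were also present in Monocytes 1, at a summed level of 8302 and 7222 CPM. In the same order they summed to 5349 and 2317 CPM in TAM 1 and to 11780 and 12690 CPM in Monocytes 2. The leading genes of TAM 2 included the monocyte genes Vcan and Chil3. The authors' class names are therefore used as names only, and no sum over monocyte classes is given. The DC classes carried their own markers in both libraries. Summed cDC1 markers in cDC1 were 9035 CPM in NK-depleted Ptgs-/- and 5559 CPM in Ptgs+/+ tumours, cDC2 markers in cDC2 were 4886 and 3153 CPM, and markers of CCR7+ DCs in cDC3 were 22430 and 17200 CPM. Of the 10 leading genes of TAM 4, 7 were themselves past 2-fold higher and 1 lower in NK-depleted Ptgs-/- than in Ptgs+/+ tumours. These counts were 5 and 0 in both Mono Mac and cDC1, 4 and 1 in TAM 3, and 3 and 4 in cDC2. They were 0 and 4 in TAM 2, 1 and 4 in neutrophils, and at most 2 in the other classes compared.

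Expression was compared for genes seen in at least 5% of the cells of a class, as the mean of both libraries' shares. The difference is that of log2(mean CPM + 5), NK-depleted Ptgs-/- minus Ptgs+/+, and a gene is called higher or lower only by size, where this passed 2-fold. Over the 12 classes 4872 of 77717 gene-class pairs (6.27%) were past 2-fold higher and 4084 (5.25%) were past 2-fold lower. The share past 2-fold higher was smallest in Monocytes 2 (449 against 348 cells) and largest in neutrophils (76 against 205 cells) and cDC3 (45 against 54 cells). A few genes recurred. Of 9774 genes compared in any class, 14 were past 2-fold higher in at least 8 classes and 15 past 2-fold lower in at least 9.

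Ifitm1 was the gene furthest from equal levels. It was past 2-fold lower in all 11 classes in which it was compared, with a median log2 difference of -5.84. In Monocytes 1, Mono Mac, TAM 1, TAM 3 and TAM 4 it passed the 5% filter only through the Ptgs+/+ library. T cells, where it was rare in both libraries, did not pass the filter. In TAM 1 it averaged 10.4 CPM in NK-depleted Ptgs-/-, 8.46 CPM in undepleted Ptgs-/- and 1835 CPM in Ptgs+/+ tumours, 168-fold lower by UMIs (interval 122-241). In cDC2 it averaged 282, 202 and 5064 CPM, from 824 UMIs after NK depletion and 13646 in Ptgs+/+ cells. Both Ptgs-/- libraries were low and the Ptgs+/+ library was high in every class with Ifitm1 compared, as the plot of levels by class shows. An Ifitm1 UMI was seen in 3.52% of TAM 1 cells after NK depletion and in 81.0% of those of Ptgs+/+ tumours. With each cell thinned to 2000 UMIs the shares were 1.04% and 66.8%, and no TAM 1 cell was too shallow. In cDC2 the shares were 27.8% and 90.8%, or 17.5% and 86.2% after thinning, which left out 0 and 3 cells. T cells set the background, with 0 of 109 cells after depletion and 4.55% of 66 cells in Ptgs+/+ tumours, at median depths of 2372 and 1642 UMIs. In the monocyte and macrophage classes of the NK-depleted Ptgs-/- library an Ifitm1 UMI was seen in 1.35% (TAM 4) to 7.96% (TAM 2) of cells.

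The close relatives Ifitm2 and Ifitm3 lay in the same direction with smaller differences. Ifitm2 was past 2-fold lower in 11 of 11 classes (median -2.20), at 307 CPM in NK-depleted Ptgs-/-, 413 in undepleted Ptgs-/- and 1135 in Ptgs+/+ TAM 1 cells. Ifitm3 averaged 531, 675 and 1494 CPM in TAM 1. In Monocytes 1, where it stood at 2116, 2584 and 3344 CPM, its difference of -0.66 was short of 2-fold. Over the family the medians ran from -1.08 in Monocytes 2 to -2.90 in cDC1. All 4 members compared in TAM 3 were past 2-fold lower, beside 5.78% of all genes compared in that class (6.2% were past 2-fold higher). Ifitm genes have near-identical stretches, so reads between relatives can be split in a way that these files do not show.

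**Figure D2:**
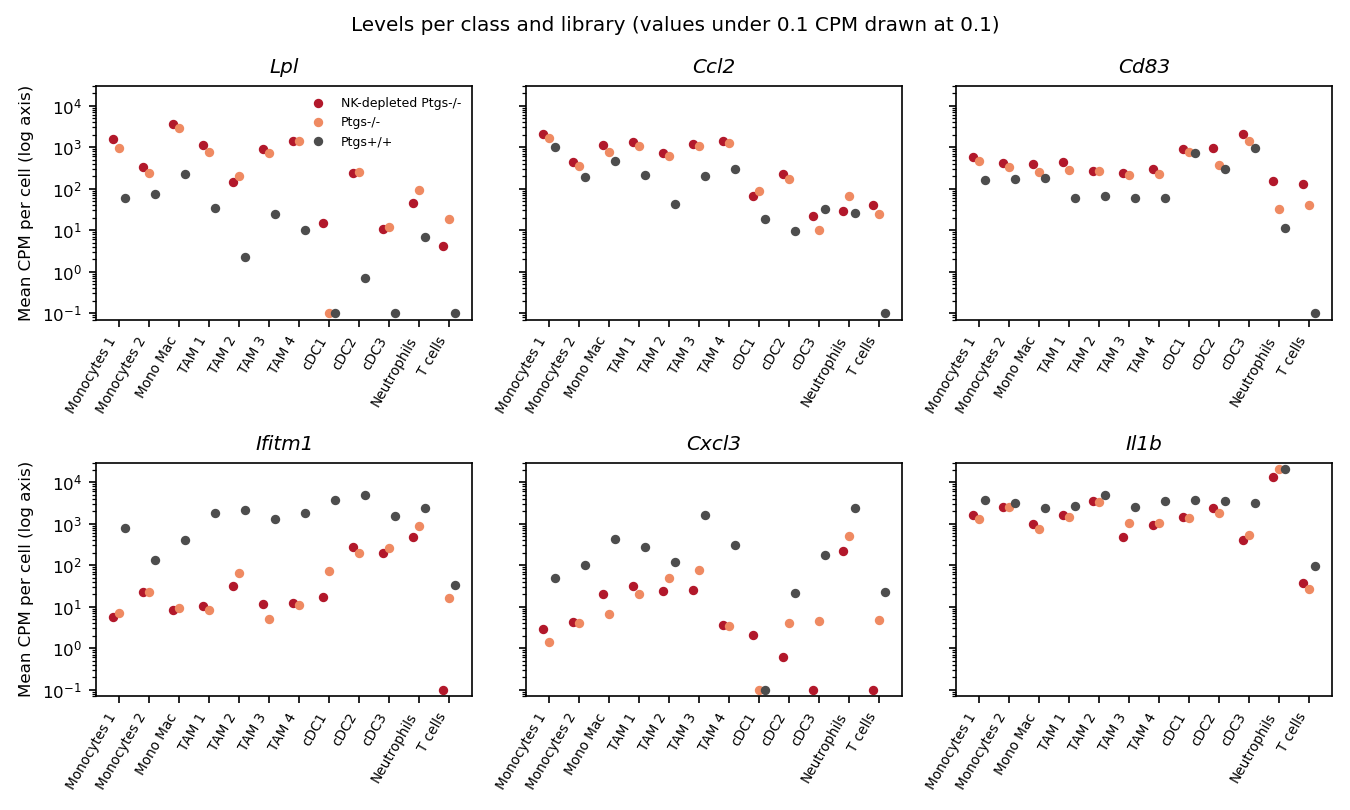
Mean CPM per cell (y axis, log axis) of 6 genes in the 12 classes (x axis), 1 point per library, NK-depleted Ptgs-/- left, Ptgs-/- in the middle and Ptgs+/+ right. Lpl lies higher and Ifitm1 lower in both Ptgs-/- libraries, with TAM 1 at 1150 and 34.6 CPM for Lpl and at 10.4 and 1835 CPM for Ifitm1 in NK-depleted Ptgs-/- and Ptgs+/+ tumours.

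Ligands that attract and activate neutrophils were lower in the NK-depleted Ptgs-/- library. All 4 of the neutrophil-attracting CXC chemokines compared in TAM 3 were past 2-fold lower (beside 5.78% of all genes), with a median of -3.99. In undepleted Ptgs-/- TAM 3 the median was -3.35. Cxcl3 averaged 25.2 CPM in NK-depleted Ptgs-/-, 77.7 CPM in undepleted Ptgs-/- and 1666 CPM in Ptgs+/+ TAM 3 cells, 77.3-fold lower by UMIs (53.6-116). Ppbp, the precursor of another such chemokine, averaged 10.7, 11.9 and 666 CPM there. Cxcl2 was less far apart, at 974, 1418 and 5664 CPM. In TAM 1 the list's median was -2.04 (3 of 4 lower, beside 2.22% of all genes compared), with Cxcl3 at 31.5, 20.5 and 278 CPM and Ppbp at 15.4, 29.1 and 549 CPM. Cxcl1 did not share this direction everywhere, since it averaged 59.9, 32.6 and 48.6 CPM in TAM 1 but 16.8, 24.0 and 124 CPM in TAM 3.

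The interleukin-1 family and inflammasome genes had medians below 0 in all 12 classes, from -0.37 in Mono Mac to -1.42 in T cells. Il1b, which encodes the cytokine IL-1 beta, averaged 491 CPM in NK-depleted Ptgs-/-, 1045 CPM in undepleted Ptgs-/- and 2505 CPM in Ptgs+/+ TAM 3 cells, 4.69-fold lower by UMIs (4.30-5.13). In cDC3 it averaged 404, 544 and 3169 CPM, 9.20-fold lower (7.54-11.3). Il1b was nearer to equal in neutrophils, where its level was highest, at 13300, 20740 and 20920 CPM (-0.81), and in Monocytes 2 at 2595, 2522 and 3217 CPM (-0.42). Il1r2, the decoy receptor that binds interleukin-1, was itself past 2-fold lower in 9 of 11 classes. It averaged 87.7, 97.7 and 892 CPM in TAM 2 and 23.9, 21.4 and 383 CPM in TAM 1.

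Alarmins and activation genes shared with neutrophils had medians below 0 in every monocyte and macrophage class, from -0.48 in TAM 2 to -3.29 in TAM 4. Of the members compared, 6 of 9 in Monocytes 1 (median -2.45, beside 2.45% of all genes), 8 of 10 in Mono Mac (-1.57, beside 3.71% lower and 4.77% higher), 8 of 11 in TAM 1 (-1.95) and 9 of 11 in TAM 3 (-2.07) were past 2-fold lower, and none was past 2-fold higher. The undepleted Ptgs-/- medians were -2.73, -1.98, -1.58 and -2.08. In TAM 1 and TAM 3, 2.22% and 5.78% of all genes compared were past 2-fold lower. Slpi, a secreted inhibitor of leukocyte proteases, averaged 31.9 CPM in NK-depleted Ptgs-/-, 34.8 CPM in undepleted Ptgs-/- and 1092 CPM in Ptgs+/+ TAM 3 cells. S100a11, a calcium-binding protein, was past 2-fold lower in 11 of 12 classes and averaged 451, 580 and 2043 CPM in cDC2. Clec4d, a myeloid C-type lectin receptor, was lower in 9 of 9 and averaged 56.0, 233 and 499 CPM in TAM 4. The list of neutrophil markers shares S100a8, S100a9, Csf3r, Mmp8, G0s2 and Hdc with the alarmin list. It shares Cxcr1 and Cxcr2 with the neutrophil-attracting chemokine list, so it is not separate from either. Markers of neutrophils moved with both lists. Their summed level was 171 CPM in NK-depleted Ptgs-/- against 909 CPM in Ptgs+/+ TAM 3 cells, 133 against 575 CPM in TAM 1, 111 against 709 CPM in TAM 4 and 132 against 454 CPM in Monocytes 1, while in neutrophils themselves it was 19710 against 38770 CPM. The part of free or engulfed neutrophil RNA in the difference was not tested.

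Matrix and adhesion genes split by class. Mmp9, a gelatinase that neutrophils also carry, averaged 1.63 CPM in NK-depleted Ptgs-/-, 5.35 CPM in undepleted Ptgs-/- and 768 CPM in Ptgs+/+ TAM 1 cells. In TAM 4 it had 0 UMIs after NK depletion and 92 in Ptgs+/+ tumours, at least 57.2-fold lower when 3 UMIs are taken as the limit for the class. In TAM 1 and TAM 4 Mmp9 passed the 5% filter only through the Ptgs+/+ library. Thbs1, the matrix protein thrombospondin 1, was past 2-fold lower in 9 of 11 classes, at 223, 140 and 2386 CPM in Mono Mac, 9.06-fold lower (8.24-9.96). Among 13 matrix genes compared in Monocytes 1, 9 were past 2-fold lower and none higher, with Vcan (136, 162 and 692 CPM) and Tgfbi (1143, 993 and 3020 CPM) among them. Lower genes were 2.45% of all genes compared in that class. TAM 4 had both directions (3 higher, 7 lower of 13, beside 8.05% and 5.29% of all genes), and Timp2, a protease inhibitor, was higher there at 301, 178 and 73.4 CPM.

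**Figure D3:**
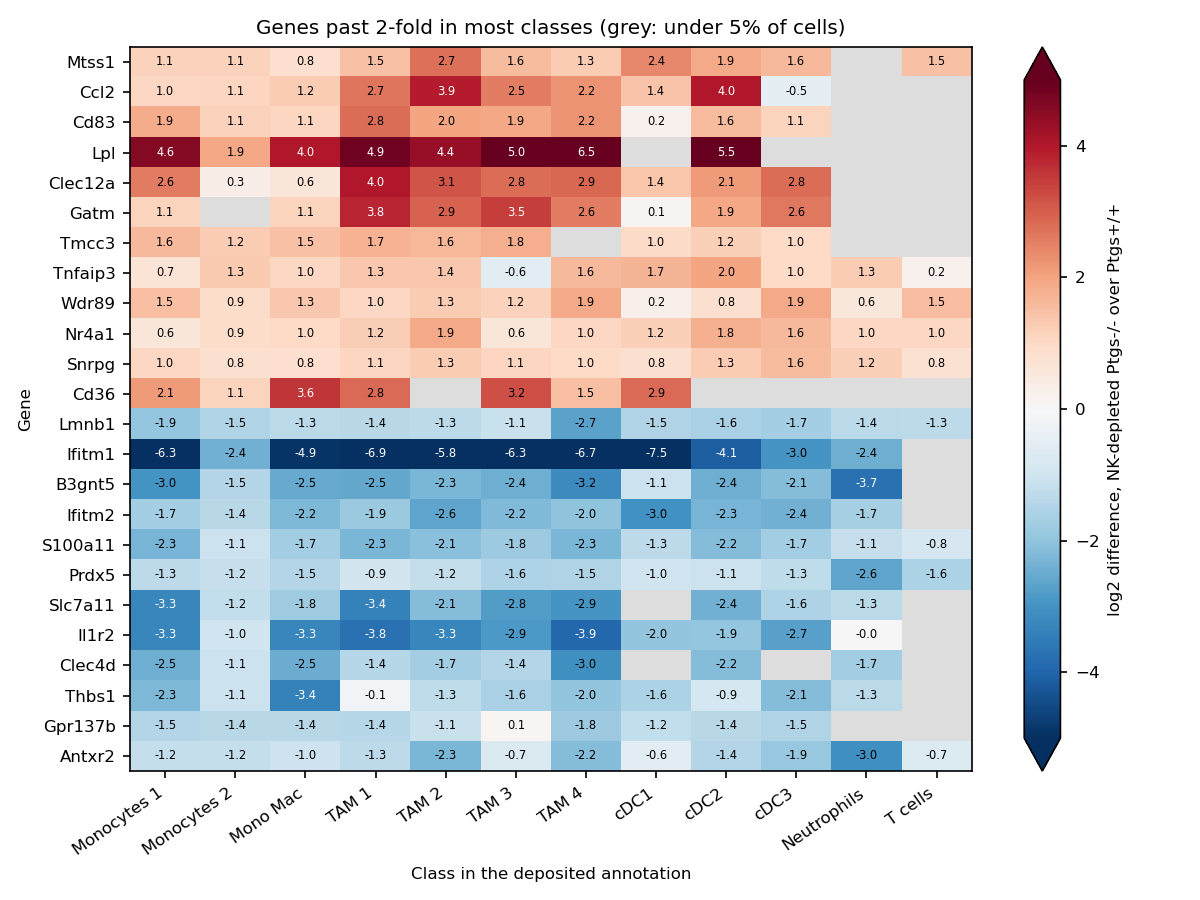
Log2 difference, NK-depleted Ptgs-/- over Ptgs+/+ (colour and printed value), of the 12 genes per direction past 2-fold in the most classes (rows) in the 12 classes (columns), with grey for a gene in under 5% of cells. Lpl is higher in 8 of 8 classes compared and Ifitm1 lower in 11 of 11.

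Lpl, which encodes the secreted enzyme lipoprotein lipase, was the recurrent higher gene with the largest difference (past 2-fold in 8 of 8 classes compared, median 4.72). Lpl was seen in 0.885%, 3.04%, 1.89% and 0.528% of Ptgs+/+ cells of TAM 2, TAM 3, TAM 4 and cDC2. In these classes it passed the 5% filter only through the NK-depleted Ptgs-/- library. It averaged 1567 CPM in NK-depleted Ptgs-/-, 958 CPM in undepleted Ptgs-/- and 60.6 CPM in Ptgs+/+ Monocytes 1 cells, a UMI ratio of 22.2 (17.9-27.9). In Mono Mac it averaged 3687, 2882 and 224 CPM, a ratio of 15.4 (12.9-18.4), and in TAM 1 1150, 787 and 34.6 CPM, a ratio of 29.0 (24.8-34.1). Lpl was also present in cDC2 of both Ptgs-/- libraries, at 244 and 259 CPM, against 0.689 CPM in Ptgs+/+ cDC2. The fatty acid receptor gene Cd36 was higher in 7 of 7 classes, at 537, 452 and 52.8 CPM in TAM 3. The whole lipid list had medians between -0.24 and 0.34. In Mono Mac 5 of 17 members were past 2-fold higher, the others being Abcg1, a cholesterol exporter (218, 267 and 105 CPM), Npc1, a lysosomal cholesterol transporter (83.7, 71.6 and 37.9 CPM), and Pparg, a lipid-sensing nuclear receptor (24.7, 18.4 and 7.17 CPM). Over all genes compared in Mono Mac, 4.77% were past 2-fold higher and 3.71% lower. Apoe, an apolipoprotein gene, and Msr1, a scavenger receptor, were past 2-fold lower there, Apoe at 80.8, 77.4 and 593 CPM. Abcg1 was also past 2-fold higher in cDC1 (75.7, 62.1 and 18.9 CPM) and cDC3 (210, 144 and 55.2 CPM).

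Receptors and regulators were among the other recurrent higher genes. Clec12a, an inhibitory C-type lectin receptor, averaged 179 CPM in NK-depleted Ptgs-/-, 151 CPM in undepleted Ptgs-/- and 6.39 CPM in Ptgs+/+ TAM 1 cells. Cd83, a surface protein of activated DCs and macrophages, was higher in 9 of 10 classes. It stood at 432, 282 and 58.5 CPM in TAM 1 and at 937, 379 and 308 CPM in cDC2, and in cDC1 at 924, 773 and 725 CPM. Tnfaip3, the NF-kB inhibitor A20, was past 2-fold higher in 8 of 12 classes, at 448, 198 and 111 CPM in cDC2, but it averaged 218, 185 and 328 CPM in TAM 3. Mtss1, a membrane-bending protein, was higher in 10 of 11 classes and averaged 231, 299 and 30.4 CPM in TAM 2. Gatm, an enzyme of creatine synthesis, was higher in 8 of 9 classes and averaged 180, 169 and 8.26 CPM in TAM 1. In the lower direction Lmnb1, a nuclear lamin gene, was past 2-fold in 12 of 12 classes with a median of -1.43. B3gnt5, a glycosyltransferase, was lower in 11 of 11 (median -2.44). Slc7a11, the cystine transporter, was lower in 10 of 10 and averaged 53.5, 53.6 and 594 CPM in TAM 1.

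Genes of alternative activation were higher in TAM 1 (9 of 15, 1 lower, median 1.62, beside 3.51% of all genes higher), TAM 4 (10 of 16, 1 lower, 1.55), TAM 2 (5 of 9, none lower, 1.01, beside 4.75% higher and 3.13% lower) and cDC2 (7 of 11, 2 lower, 1.19, beside 3.11%). For TAM 4 the shares of all genes were 8.05% higher and 5.29% lower. The undepleted Ptgs-/- medians in TAM 1, TAM 4, TAM 2 and cDC2 were 1.14, 1.54, 1.47 and 1.90. The summed level of 11 monocyte markers was higher in the same classes, at 5349 CPM in NK-depleted Ptgs-/- against 2317 CPM in Ptgs+/+ TAM 1 cells, 6919 against 4465 CPM in TAM 4, 8952 against 5497 CPM in TAM 2 and 3241 against 1847 CPM in cDC2. By member they were mixed, with 4 higher and 2 lower of 9 compared in TAM 1, 3 and 2 of 10 in TAM 4, 2 and 2 of 10 in TAM 2, and 3 and 0 of 8 in cDC2. Macrophage markers in cDC2 summed to 1748 CPM in NK-depleted Ptgs-/-, 2668 CPM in undepleted Ptgs-/- and 1309 CPM in Ptgs+/+ cells. The alternative activation list itself holds Chil3 and Fn1 of the monocyte markers and Mrc1 of the macrophage markers. The part of such cells in these lists was not tested. Arg1, the arginine-degrading enzyme arginase 1, averaged 616 CPM in NK-depleted Ptgs-/-, 1034 CPM in undepleted Ptgs-/- and 21.4 CPM in Ptgs+/+ TAM 2 cells, a UMI ratio of 26.2 (19.9-35.2). In TAM 1 it averaged 1571, 1707 and 221 CPM. Arg1 was low and in the opposite direction in Monocytes 1, at 5.83, 35.6 and 56.4 CPM. Retnla, a secreted protein of alternatively activated macrophages, averaged 1365, 2052 and 29.0 CPM in TAM 4, a ratio of 57.4 (29.0-133). In cDC2 it had 164 UMIs in NK-depleted Ptgs-/- and 0 in Ptgs+/+ tumours, at least 44.1-fold higher. Retnla thus passed the 5% filter in cDC2 only through the NK-depleted Ptgs-/- library and could only be called higher there. The lectin gene Mgl2 averaged 645, 851 and 75.0 CPM in cDC2, and the ribonuclease gene Ear2 averaged 246, 318 and 3.76 CPM. In Monocytes 1 the list was mixed (4 higher and 3 lower of 18, median 0.05, beside 1.8% higher).

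Chemokines for monocytes were higher in some classes and lower in others. Ccl2, the ligand of CCR2, was past 2-fold higher in 9 of 10 classes. It averaged 735 CPM in NK-depleted Ptgs-/-, 621 CPM in undepleted Ptgs-/- and 43.6 CPM in Ptgs+/+ TAM 2 cells, a ratio of 18.1 (14.5-22.7), and 225, 168 and 9.42 CPM in cDC2. Its receptor gene Ccr2 averaged 1487, 1480 and 680 CPM in cDC2. TAM 3 held both directions, since Ccl7 (704, 691 and 125 CPM) and the receptor gene Cx3cr1 (199, 118 and 13.8 CPM) were higher while Ccl3 (254, 389 and 1526 CPM) and Ccl4 (356, 607 and 2119 CPM) were lower. Ccl2, Ccl7 and Ccl12 are similar neighbours, so reads may be shared between them.

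Hypoxia and glycolysis genes were higher in TAM 1 (8 of 19, none lower, median 0.91, and 0.89 in undepleted Ptgs-/-). The share of all genes compared in TAM 1 was 3.51% higher and 2.22% lower. Egln3, an oxygen sensor that itself responds to hypoxia, averaged 173 CPM in NK-depleted Ptgs-/-, 138 CPM in undepleted Ptgs-/- and 28.1 CPM in Ptgs+/+ TAM 1 cells. Ero1l, an oxidase of the endoplasmic reticulum, averaged 427, 291 and 101 CPM, and the glucose transporter gene Slc2a1 197, 167 and 67.1 CPM. Monocytes 1 lay the other way, with 8 of 18 lower and none higher (median -0.91, and -0.50 in undepleted Ptgs-/-). Among all genes compared in Monocytes 1, 2.45% were lower and 1.8% higher. There the hypoxia factor gene Hif1a averaged 171, 184 and 703 CPM, 3.96-fold lower (3.62-4.34). In cDC3 10 of 16 were lower (median -1.11, beside 11.3% of all genes lower), and Eno1, a glycolytic enzyme, averaged 5.66, 119 and 206 CPM.

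**Figure D4:**
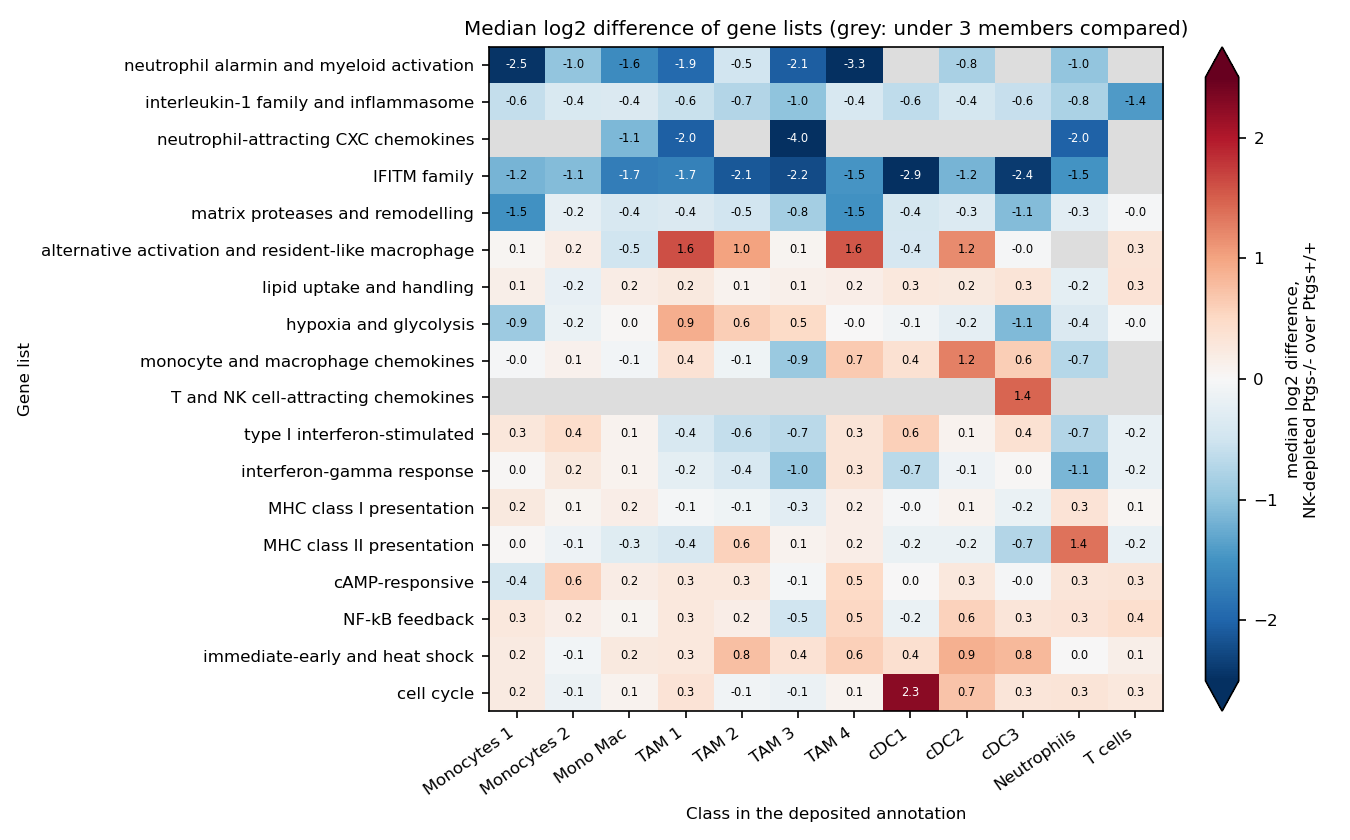
Median log2 difference, NK-depleted Ptgs-/- over Ptgs+/+ (colour and printed value), of 18 gene lists (rows) in the 12 classes (columns), with grey where under 3 members were compared. The Ifitm family and the neutrophil alarmin list lie below 0 in every class with a value, and alternative activation lies highest in TAM 1 at 1.62.

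Type I interferon-stimulated genes outside the Ifitm family differed by class, with medians from -0.74 in neutrophils to 0.60 in cDC1. In neutrophils 4 of 10 were lower and none higher (beside 14.1% of all genes lower). In cDC1 6 of 21 were higher and 1 lower (beside 11.3% higher). The undepleted Ptgs-/- medians there were -0.23 and 0.75. The list had a median of 0.28 in Monocytes 1 (1 of 30 past 2-fold higher, none lower, beside 1.8% higher). In Monocytes 2 it was 0.43 (5 of 29 higher, none lower, beside 1.02% of all genes higher and 1.74% lower). In TAM 3 it was -0.67 (6 of 17 lower, none higher, beside 5.78% lower). The undepleted Ptgs-/- medians in these last classes were 0.60, 1.03 and -0.16. Rsad2, which encodes the antiviral enzyme viperin, averaged 245 CPM in NK-depleted Ptgs-/-, 308 CPM in undepleted Ptgs-/- and 61.9 CPM in Ptgs+/+ Monocytes 2 cells, a UMI ratio of 3.53 (2.78-4.51). In cDC3 it averaged 161, 176 and 6.45 CPM from 34 UMIs after depletion and 3 in Ptgs+/+ tumours, a ratio of 11.9 (3.75-60.7). Isg15, a ubiquitin-like protein, went against Rsad2 in cDC3, at 97.1, 184 and 427 CPM. Both genes hold the motif printed above, and a link between motif and direction was not tested. Mx1, an antiviral GTPase, averaged 236, 109 and 22.5 CPM in cDC3, and in cDC3 overall 6 of 24 were higher (beside 13.5%) and 2 lower.

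The interferon-gamma list had medians near or below 0 in NK-depleted Ptgs-/- over Ptgs+/+ in 10 of 12 classes, from -1.14 in neutrophils and -0.96 in TAM 3 to 0.09 in Mono Mac, and stood at 0.25 in Monocytes 2 and 0.32 in TAM 4. The undepleted Ptgs-/- medians over the same Ptgs+/+ library were -0.59, -0.31, 0.13, 0.89 and 0.53 in these 5 classes. In Monocytes 1 they were 0.03 with depletion and 0.72 without. Gbp2, a guanylate-binding protein induced by interferon-gamma, averaged 56.0 CPM in NK-depleted Ptgs-/-, 104 CPM in undepleted Ptgs-/- and 31.2 CPM in Ptgs+/+ Monocytes 2 cells. In TAM 3, 4 of 9 compared were past 2-fold lower, beside 5.78% of all genes. Fcgr1, an IgG receptor gene, averaged 92.1, 201 and 240 CPM there, and Nos2, the inducible nitric oxide synthase, 38.1, 51.1 and 141 CPM. Cxcl10, a chemokine for T and NK cells, averaged 105, 312 and 202 CPM in Monocytes 1. Its level was thus highest without depletion in Monocytes 1, whereas in cDC3 it averaged 176, 40.3 and 2.26 CPM from 20 UMIs after depletion and 1 in Ptgs+/+ tumours.

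Genes that respond to cyclic AMP had medians from -0.44 in Monocytes 1 to 0.57 in Monocytes 2. In undepleted Ptgs-/- over Ptgs+/+ these medians were -0.99 and -0.14. In cDC2 they were 0.27 with depletion and -0.38 without, and in TAM 4 0.50 and -0.66. In Monocytes 1 with depletion, 4 of 12 members compared were past 2-fold lower and none higher. Of all genes compared in that class, 2.45% were lower and 1.8% higher. Crem, a cyclic AMP-induced regulator of transcription, averaged 50.1 CPM in NK-depleted Ptgs-/-, 39.8 CPM in undepleted Ptgs-/- and 131 CPM in Ptgs+/+ Monocytes 1 cells. Nr4a2, an orphan receptor of the same list, averaged 413, 228 and 568 CPM there and 550, 280 and 452 CPM in cDC2. Dusp1, a phosphatase gene with TGACGTCA in its promoter, averaged 2816, 1557 and 1095 CPM in cDC2.

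Immediate-early and heat shock genes differed between both Ptgs-/- libraries in some classes only. Their medians in NK-depleted Ptgs-/- over Ptgs+/+ were 0.89 in cDC2 (7 of 20 higher, none lower), 0.82 in cDC3 and 0.76 in TAM 2, against 0.24, 0.36 and 0.37 in undepleted Ptgs-/- over Ptgs+/+. In cDC2, 3.11% of all genes compared were past 2-fold higher and 2.6% lower. The list's medians were close with and without depletion in Monocytes 1 (0.23 and 0.30), Monocytes 2 (-0.06 and -0.01), TAM 4 (0.60 and 0.65) and cDC1 (0.40 and 0.44). In neutrophils they were 0.01 and 0.33. In cDC2 Egr1 averaged 1004 CPM in NK-depleted Ptgs-/-, 579 CPM in undepleted Ptgs-/- and 168 CPM in Ptgs+/+ cells, and Nr4a1 1206, 473 and 347 CPM. Such genes also respond to dissociation of the tissue, and the median share of mitochondrial UMIs was 3.78%, 3.15% and 3.10% in the 3 libraries. The part of handling in these values, and in those of Dusp1, Nr4a1, Nr4a2 and Tnfaip3, was not tested.

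**Figure D5:**
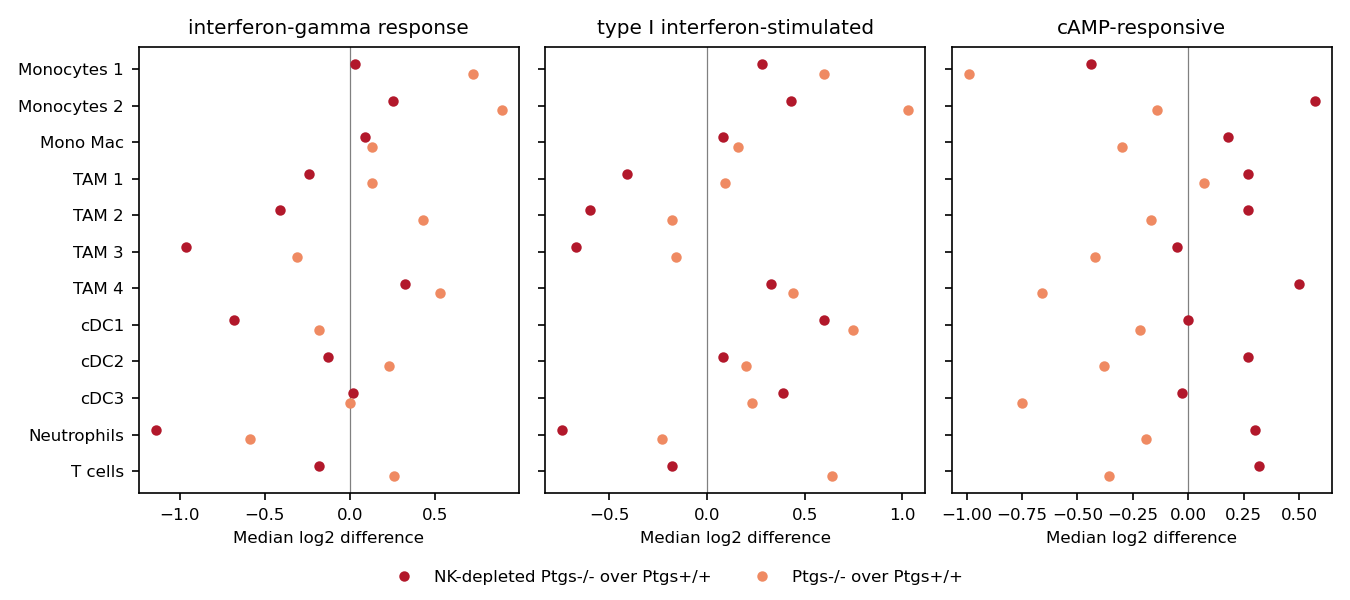
Median log2 difference over Ptgs+/+ (x axis) of 3 gene lists (panels) in the 12 classes (rows), for NK-depleted Ptgs-/- and for undepleted Ptgs-/-, which share the Ptgs+/+ library. In Monocytes 1 the interferon-gamma list stands at 0.03 with depletion and 0.72 without, and the cyclic AMP list at -0.44 and -0.99.

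Prostaglandin receptors and enzymes of the host cells were measured as well. Ptger4, which encodes the prostaglandin E2 receptor EP4, averaged 108 CPM in NK-depleted Ptgs-/-, 74.9 CPM in undepleted Ptgs-/- and 8.85 CPM in Ptgs+/+ TAM 2 cells, a UMI ratio of 12.5 (7.57-21.8). It averaged 99.1, 76.2 and 26.0 CPM in TAM 1 and 122, 106 and 50.0 CPM in Monocytes 1. Ptgs2 lay the other way in Monocytes 1, at 276, 237 and 772 CPM, and stood at 467, 208 and 464 CPM in cDC2. Tbxas1, the thromboxane synthase, averaged 129, 150 and 15.8 CPM in TAM 1. The list of prostanoid enzymes had medians between -0.44 and 0.35, so the enzymes named are single members. Of the prostanoid receptor list, which holds Ptger4, at most 3 members were compared in a class. Its median was 1.13 in TAM 1 (2 of 3 higher, none lower, beside 3.51% of all genes higher). In Mono Mac it was 0.70 (3 compared, none past 2-fold), and in TAM 2 only 1 member was compared.

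In cDC1, 14 of 18 cell cycle genes compared were past 2-fold higher and none lower (median 2.26, beside 11.3% of all genes higher in this class). The undepleted Ptgs-/- median was 2.16. The median falls to 1.64 when the 5 members with 0 UMIs in Ptgs+/+ cDC1 are set at their limit of 3 UMIs. These 5 passed the 5% filter only through the NK-depleted Ptgs-/- library. Top2a, a topoisomerase of dividing cells, had 85 UMIs in 54 NK-depleted Ptgs-/- cells and 0 in 38 Ptgs+/+ cells, at least 14.2-fold higher. Mki67, the proliferation antigen Ki-67, had 43 and 0 UMIs, at least 7.19-fold higher, and was seen in 18.5% and 0% of these cells. With 3 cells as the limit for a count of 0, 0 of 38 allows up to 7.89% of cells with an Mki67 UMI, which does not limit the share of cells that express the gene. The cDC1 markers Xcr1 (352 CPM in NK-depleted Ptgs-/-, 426 CPM in undepleted Ptgs-/- and 53.2 CPM in Ptgs+/+ cells) and Clec9a (189, 218 and 77.7 CPM) were higher with them. Egr3, a regulator of transcription, averaged 539, 492 and 14.7 CPM. Dab2, an endocytic adaptor known from macrophages, had 1 UMI after depletion and 50 in Ptgs+/+ cells. The summed cDC1 markers of the class, given above, were higher in the NK-depleted Ptgs-/- library, and the part of the class's makeup in these values was not tested. Ligands of inhibition were lower in cDC1, 4 of 7 compared (beside 9.32%), with Cd274, which encodes PD-L1, at 9.26, 9.21 and 69.5 CPM.

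In cDC2, the largest DC class with 406 and 379 cells, 4 of 12 cell cycle genes were higher and 1 lower (median 0.71, and 1.10 without depletion). This stands beside 3.11% of all genes higher and 2.6% lower in cDC2. Cd86, a co-stimulatory ligand, averaged 134 CPM in NK-depleted Ptgs-/-, 97.8 CPM in undepleted Ptgs-/- and 296 CPM in Ptgs+/+ cDC2, 2.30-fold lower (2.05-2.60). Tnfsf4, which encodes the T cell ligand OX40L, averaged 0.851, 0.681 and 48.3 CPM, with 2 UMIs after depletion and 134 in Ptgs+/+ cells, 83.0-fold lower (22.5-692). Cd274 averaged 17.8, 20.2 and 73.9 CPM. Tnfsf9, the ligand of 4-1BB, lay the other way at 303, 177 and 137 CPM. Pparg had 57 UMIs after depletion and 0 in Ptgs+/+ cDC2, at least 15.3-fold higher. Levels of Dmkn, the secreted protein dermokine, were 6.78, 5.03 and 113 CPM.

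The cDC3 class carried the CCR7+ DC markers, and the DC maturation and migration list itself had a median of 0.04 there (14 compared, none higher and 1 lower). Its chemokines for T and NK cells were higher, 4 of 5 compared (median 1.45, and 1.72 without depletion). Ccl5 averaged 4425 CPM in NK-depleted Ptgs-/-, 5474 CPM in undepleted Ptgs-/- and 1653 CPM in Ptgs+/+ cDC3 cells, a UMI ratio of 2.23 (2.00-2.49). Ccl22, a ligand of CCR4, averaged 2985, 3309 and 1089 CPM, a ratio of 3.15 (2.77-3.59). Ccl17, another ligand of CCR4, averaged 567, 1393 and 5.61 CPM, with 191 UMIs after depletion and 2 in Ptgs+/+ cells, a ratio of 101 (27.5-837). A Ccl17 UMI was seen in 22.2% of 45 NK-depleted Ptgs-/- and 3.70% of 54 Ptgs+/+ cells. The interval does not cover this spread between cells. Cd274 averaged 239, 222 and 636 CPM in cDC3, 2.47-fold lower (1.86-3.32), and Cd86 153, 132 and 291 CPM, 1.77-fold lower (1.22-2.61). Of the cytokines, Il12b averaged 543, 395 and 357 CPM, a ratio of 1.39 (1.08-1.80). Il15 averaged 58.5, 104 and 16.1 CPM from 13 and 4 UMIs, and Tnf 47.3, 58.6 and 10.7 CPM from 15 and 4 UMIs. Aldh1a2, which makes retinoic acid, averaged 162, 68.6 and 6.65 CPM. Cd74, the invariant chain of MHC class II, averaged 4784, 6511 and 10090 CPM. Casp6, a caspase, had 0 UMIs in 45 NK-depleted Ptgs-/- cells and 39 UMIs in 54 Ptgs+/+ cells, at least 12.3-fold lower. With these cell numbers 13.5% of all genes compared in cDC3 were past 2-fold higher and 11.3% lower, and many of the single genes rest on few UMIs.

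Genes of antigen presentation were compared as well. MHC class I genes had medians between -0.26 and 0.34 in all 12 classes. MHC class II genes had a median of 0.57 in TAM 2 (1.20 without depletion), where H2-Aa averaged 1575 CPM in NK-depleted Ptgs-/-, 2478 CPM in undepleted Ptgs-/- and 756 CPM in Ptgs+/+ cells, and of -0.73 in cDC3 (3 of 11 lower, 1 higher). In neutrophils it was 1.35 (3 of 5 higher, none lower, and 1.46 without depletion), but -0.24 among cells with at least 500 genes. Of all genes compared in cDC3, 11.3% were past 2-fold lower and 13.5% higher. In neutrophils these shares were 14.1% and 14.6%. H2 genes have close relatives, so their reads may be shared.

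Single genes with the largest differences in the remaining classes came from several functions. In Mono Mac, Tnfrsf9, the receptor 4-1BB, averaged 9.10 CPM in NK-depleted Ptgs-/-, 51.6 CPM in undepleted Ptgs-/- and 253 CPM in Ptgs+/+ cells. In Monocytes 1, Cx3cr1, the fractalkine receptor, averaged 172, 83.8 and 28.9 CPM, and Nrg1, a growth factor, 5.98, 8.61 and 110 CPM. In Monocytes 2, Maf, a transcription factor of macrophages, averaged 252, 244 and 74.1 CPM, and lower genes were Id3, an inhibitor of transcription factors, at 31.7, 48.9 and 215 CPM, and Socs3, an inhibitor of cytokine signals, at 123, 176 and 619 CPM. In TAM 3, Pmp22, a membrane protein known from myelin, averaged 325, 168 and 8.26 CPM. In TAM 2, Ramp3, a partner of peptide hormone receptors, averaged 2.46, 14.4 and 266 CPM. In TAM 4, Ckb, a creatine kinase, averaged 275, 219 and 26.9 CPM.

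Neutrophils, the class with the fewest UMIs per cell (medians of 966 and 842), were few in the NK-depleted Ptgs-/- library. Cxcl3 averaged 224 CPM in NK-depleted Ptgs-/-, 507 CPM in undepleted Ptgs-/- and 2343 CPM in Ptgs+/+ neutrophils, and S100a9, an alarmin subunit, 4860, 8563 and 15430 CPM. Eosinophil markers were higher in this class of the NK-depleted Ptgs-/- library. Their summed level was 850 CPM after depletion, 116 CPM without it and 37.5 CPM in Ptgs+/+ tumours, and their part in the differences of this class was not tested. Olr1, an oxidised lipid receptor, averaged 428, 126 and 13.4 CPM, and Serpinb2, a protease inhibitor, had 29 UMIs after depletion and 0 in Ptgs+/+ neutrophils (at least 21.6-fold higher). In this class 14.6% of all genes compared were past 2-fold higher and 14.1% lower.

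T cells were 2.81% of NK-depleted Ptgs-/-, 4.58% of undepleted Ptgs-/- and 2.02% of Ptgs+/+ cells. Csf2, the cytokine GM-CSF, averaged 273 CPM in NK-depleted Ptgs-/-, 122 CPM in undepleted Ptgs-/- and 9.08 CPM in Ptgs+/+ T cells, with 80 UMIs after depletion and 1 in Ptgs+/+ cells. Lif, a cytokine of the interleukin-6 family, averaged 326, 65.6 and 22.7 CPM, and Areg, the growth factor amphiregulin, with TGACGTCA in its promoter, 573, 259 and 231 CPM. Nkg7, a gene of cytotoxic granules, averaged 18.5, 185 and 143 CPM. NK cell markers moved with Nkg7, at a summed level of 60.5, 507 and 565 CPM in the T cell class, although Ncr1 and Klrb1c had 0 UMIs there in both NK-depleted Ptgs-/- and Ptgs+/+ tumours. The part of NK cells in the Nkg7 difference was not tested. Markers of type 2 innate lymphoid cells moved with these genes. Gata3 was seen in 59.6% of NK-depleted Ptgs-/- and 33.3% of Ptgs+/+ T cells, Il1rl1, the interleukin-33 receptor, in 39.5% and 18.2%, and Cd3e, a subunit of the T cell receptor complex, in 43.1% and 53.0%. The summed level of the list of such markers, which holds Areg itself, was 3491 CPM against 1944 CPM, and their part in the result was not tested. The list of T cell markers, Cd3e among them, had a median of 0.04 in this class (2 of 11 higher, none lower). Its summed level was 4316 CPM in NK-depleted Ptgs-/- against 4566 CPM in Ptgs+/+ T cells. Among all genes compared in T cells, 10.4% were past 2-fold higher and 8.56% lower.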

How the data were processed

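Live CD45+ cells of 3 tumour groups were profiled with a 3' droplet assay (10x Genomics). The authors deposited 1 matrix of log2 values per cell and gene for the 3 libraries, and a table of cell annotations. The submitters' processing notes name Partek, the genome build mm10 and Cell Ranger 3.0.2, and further settings are not given in the sources used here. Undoing log2(x + 1) gave cell totals between 999976.4 and 1000024.5, so the deposited log2 values are log2(CPM + 1). Dividing by the value of a single UMI in each cell gave whole UMIs for 99.94% of values above 0. Genes with parts of a UMI (16 symbols) have no UMI ratios.

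Of 11872 cells, 36 without annotation and 18 that carried 9 barcodes held by more than 1 cell were left out. Level is the mean CPM over the cells of a class, and differences are of log2(mean + 5). Genes in at least 5% of cells (mean of both shares) were compared. Differences were centred on the median gene where it lay over 0.1 from 0, which removed 0.11 in Monocytes 2, 0.13 in cDC1 and 0.16 in neutrophils. UMI ratios and shares have exact 95% intervals for counting error only, ratios of shares have intervals on the log scale, and 3 counts were the limit for a count of 0. No doublet caller was run, and free RNA was not subtracted. The script was tested on simulated data.

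The genes named are the 3 highest and 3 lowest of a class in at least 10% of cells, the 12 per direction past 2-fold in the most classes, for each list described 2 to 4 members with large differences, and a fixed set of cytokine, prostaglandin, DC and NK genes. Receptor segments, haemoglobin, mitochondrial, ribosomal and unnamed genes were left out of the rankings, and some genes are not reported here. Other members of a described list, and marker genes, are named as examples chosen after their values were seen. The comparison, its 29 lists of functions and 17 lists of markers and the fixed genes were chosen with earlier results of these data known, and support nothing by themselves. Alternatives were pseudocounts of 1 and 20, averaging on the log2 scale, weighting by depth, no centring, a minimum of 500 genes a cell, removal of the 5% of cells richest in genes or of cells with a gene of another lineage, thinning to 2000 UMIs, and detection filters of 10% or none. Promoters are from RefSeq (GRCm38.p6). Python 3.11.15, NumPy 2.4.6, SciPy 1.17.1, pandas 2.3.3 and matplotlib 3.10.9 were used.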

Additional observations from a re-analysis of the deposited data

Results flagged for a closer look

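Some genes lay past 2-fold in opposite directions in different classes of the same contrast, NK-depleted Ptgs-/- over Ptgs+/+. Arg1 had a log2 difference of 4.56 in TAM 2 and -2.50 in Monocytes 1. Cxcl2 stood at 1.34 in T cells and -2.64 in cDC3. Il15 stood at 1.59 in cDC3 and -1.22 in neutrophils, from 13 and 9 UMIs after depletion and 4 and 36 in Ptgs+/+ tumours. Mki67 stood at 3.76 in cDC1, a fitted value against 0 UMIs in Ptgs+/+ cells, and at -2.04 in Mono Mac. With 1 library a group, the difference between classes was not tested.

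The 45 cells still annotated as NK after depletion, which the comparison leaves out, carried other genes than those of the libraries with no depletion. Cd3e was seen in 53.3% of them, against 2.94% of 510 such cells in undepleted Ptgs-/- and 2.92% of 137 in Ptgs+/+ tumours. Gata3 was seen in 53.3%, 28.2% and 24.1%, and Il1rl1 in 31.1%, 0.588% and 0%. Ncr1, Eomes and Prf1 were seen in 0 of 45, which with 3 cells as the limit allows up to 6.67% of cells with a UMI of each, and does not limit the share of cells that express them.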

How the results depend on the processing

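The direction of the main results held under most alternatives. Gene-class pairs past 2-fold numbered 4872 higher and 4084 lower, 2405 and 2008 with a pseudocount of 20 CPM, 3137 and 2693 after thinning, 2979 and 2536 with a 10% filter, and 10998 and 9993 with no filter. The fewer or more genes compared account for the counts under the 2 filters by construction, and the cause of the others was not tested. The neutrophil share ratio was 0.312, and 0.503 in cells with at least 500 genes. Of the 328 named gene-class values past 2-fold, 299 stayed past it with a pseudocount of 20 and 291 of 328 as differences of mean log2 values, and 228 of the 245 that could be computed after thinning did. None of them changed sign. A pair of list medians did. MHC class II in neutrophils went to -0.24 in cells with at least 500 genes, against 1.35 in all cells, and the T cell effector list in Mono Mac to 0.06 with no filter, against -1.63. Thinning left under 30 cells in TAM 4, neutrophils and T cells, which have no thinned value. No paired analysis was possible because each group is 1 library, and no replicate could be left out for the same reason. Cell number limits cDC1, cDC3, neutrophils and T cells, where single genes rest on a few UMIs. Depth was lowest in neutrophils and TAM 4. Their median UMIs per cell were 966 and 1623 after depletion and 842 and 1200 in Ptgs+/+ tumours.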
